A study of Mus musculus with 7 samples.

Results

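The mitosis, spindle and kinetochore genes are 58 genes listed by what their proteins are known to do in cell division, a rule that uses no expression value, although earlier results of these data were known when it was drawn up. All 58 were matched by symbol among the 38124 genes of the count table, all 58 passed the filter on low counts, and they made up 0.351% of the 16522 genes tested. The list holds 11 genes of mitotic entry, 9 of the spindle checkpoint and anaphase, 5 of the Aurora kinases and the chromosomal passenger complex, 7 of the centromere and kinetochore, 11 spindle motors and microtubule-associated proteins, 8 of the central spindle and cytokinesis and 7 of mitotic chromosome structure. They were compared between High RFP cells, the brightest RFP-positive cells of a FACS sort, from neocortex electroporated with a control construct (n = 3 libraries, replicates 1, 2 and 4) or with a conditional Sox9 expression construct (n = 4 libraries, replicates 1 to 4). The comparison addressed how the transcriptome of basal progenitors (BPs) and their progeny differed upon conditional Sox9 expression.

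All embryos were heterozygous for Tis21-CreERT2 and received tamoxifen. Both groups were electroporated in utero at E13.5 and collected at E15.5, 48 hr later. In this line a tamoxifen-inducible Cre is driven by Tis21, a gene switched on in those apical radial glia (aRG) that produce BPs and in the BPs themselves. Cre removed a floxed membrane GFP cassette so that nuclear RFP was expressed, together with Sox9 in the case of the Sox9 construct, from the ubiquitous CAG promoter of either plasmid. Neurons that inherited the plasmid are RFP-positive too, and the study's methods describe cortices of several embryos pooled for a sort whereas its legends speak of single neocortices. The animals behind each library are therefore unclear, and p-values measure the spread between libraries. The 3 control libraries held 10465562 to 12907778 counts and the 4 libraries labelled Sox9 held 4429704 to 10520214. In CPM (counts relative to the TMM-normalised library size), Sox9 mRNA itself was at 34.6, 89.2 and 67.9 CPM in the control libraries and at 50.8, 41.1, 31.0 and 37.1 CPM in the libraries labelled Sox9. The groups overlapped, at a log2 fold change of -0.68 (SE 0.25, edgeR adjusted p = 0.0493), and a two-sided exact permutation test gave p = 0.2, where the smallest possible was 0.0286. The group names used here therefore refer to the labels and not to a measured Sox9 level.

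Cells enter mitosis when cyclin-dependent kinase Cdk1, bound to B-type cyclins and released by Cdc25 phosphatases, phosphorylates its substrates with the help of Plk1 and the Aurora kinases. Chromosomes are condensed by topoisomerase II and condensin and attached to the spindle at kinetochores. The spindle checkpoint holds back the anaphase-promoting complex (APC/C) until attachment is complete, after which separase splits the sister chromatids and the central spindle directs cytokinesis. In the embryonic neocortex aRG divide at the ventricular surface and BPs in the subventricular zone, whereas newborn neurons have left the cell cycle. Many of these genes are transcribed only late in the cycle, through promoter elements called the CHR and the CCAAT box, which are bound by the DREAM and MuvB complexes and by NF-Y.

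Promoter sequence was held for 48 of the 58 genes (51 promoters, RefSeq, GRCm38.p6, 250 bases before and 50 after the start site). On either strand, the CHR core TTTGAA was found in 37 of the 51 promoters (72.5%) and in 17.9% of all 32851 promoters of this length. The sequence CCAAT was found in 36 of them (70.6%), against 37.4% of all promoters, and both motifs in 32 (62.7%), against 6.95%. A match describes letters and not binding. The 150 bases before the start site are given for 8 genes that illustrate these arrangements next to different changes in mRNA level, 5′ to 3′ on the strand of the gene, with CHR (TTTGAA or TTCAAA) and CCAAT (or ATTGG) in capitals.

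Top2a, chr11:99024190-99024339 (- strand): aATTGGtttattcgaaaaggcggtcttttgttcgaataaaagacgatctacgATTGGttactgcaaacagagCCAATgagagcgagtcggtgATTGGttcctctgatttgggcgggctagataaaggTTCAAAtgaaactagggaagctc

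Ckap2l, chr2:129297213-129297362 (- strand): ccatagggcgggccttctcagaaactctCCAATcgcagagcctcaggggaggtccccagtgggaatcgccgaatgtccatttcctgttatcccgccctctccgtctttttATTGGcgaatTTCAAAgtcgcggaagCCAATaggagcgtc

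Ccnb2, chr9:70421555-70421704 (- strand): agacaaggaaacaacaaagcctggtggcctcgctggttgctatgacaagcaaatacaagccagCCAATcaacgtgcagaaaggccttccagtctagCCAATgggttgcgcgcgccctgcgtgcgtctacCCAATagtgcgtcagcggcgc

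Bub1, chr2:127831860-127832009 (- strand): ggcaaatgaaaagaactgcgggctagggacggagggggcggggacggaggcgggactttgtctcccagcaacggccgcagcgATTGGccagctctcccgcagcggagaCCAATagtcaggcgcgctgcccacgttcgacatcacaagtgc

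Aurka, chr2:172370571-172370720 (- strand): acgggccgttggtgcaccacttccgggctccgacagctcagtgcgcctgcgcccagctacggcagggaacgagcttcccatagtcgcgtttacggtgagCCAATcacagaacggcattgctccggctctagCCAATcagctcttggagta

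Plk1, chr7:122159285-122159434 (+ strand): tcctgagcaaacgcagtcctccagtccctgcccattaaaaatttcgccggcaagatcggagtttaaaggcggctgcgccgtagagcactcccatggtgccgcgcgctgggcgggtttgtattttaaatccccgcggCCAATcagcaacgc

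Nusap1, chr2:119618148-119618297 (+ strand): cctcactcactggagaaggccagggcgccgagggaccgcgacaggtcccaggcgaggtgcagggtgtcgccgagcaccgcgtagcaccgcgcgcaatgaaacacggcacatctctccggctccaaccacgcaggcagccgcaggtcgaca

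Mybl2, chr2:163054485-163054634 (+ strand): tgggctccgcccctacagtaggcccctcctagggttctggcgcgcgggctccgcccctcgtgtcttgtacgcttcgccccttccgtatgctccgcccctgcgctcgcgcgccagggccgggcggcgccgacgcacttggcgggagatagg

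Top2a carried a CHR 23 bases before the start site, with all 4 CCAAT boxes of the window upstream of it. Outside the window lay another CHR match at 179 bases and CCAAT boxes at 227 and 189 bases. In Ckap2l the CHR lay 30 bases before the start site, with CCAAT boxes on both sides of it, at 122, 40 and 14 bases. In Ccnb2 the window held CCAAT boxes at 87, 54 and 21 bases, and CHR matches lay outside it, 167 bases before and 4 bases after the start site. Bub1 held CCAAT boxes at 68 and 42 bases and Aurka at 51 and 19 bases, whereas Plk1 held a single CCAAT box at 14 bases. Aurka, Plk1 and Ckap2l also had a CHR match after the start site, at 32, 30 and 41 bases, and Bub1 had none in the whole promoter. Neither motif was present in the promoters of Nusap1 and Mybl2. All of these genes but Mybl2 were lower in the libraries labelled Sox9, as described next. Among the genes with promoter sequence, the 34 with a CHR had log2 fold changes with a median of -1.85 (29 called lower), and for the 14 without one the median was -1.47 (12 called lower and 1 higher). The difference between these medians was not tested. In the annotation, exons of 15 of the 58 genes overlapped exons on the opposite strand, whose reads cannot be told apart where counting ignored strand, and Ccnb1, Ccnb2, Kif22 and Kif4 have named pseudogenes.

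Of the 58 mitotic genes, 49 were lower in the libraries labelled Sox9, 1 was higher and 8 did not pass the test (edgeR's quasi-likelihood test, two-sided, Benjamini-Hochberg adjusted p under 0.01 over all genes tested). Over all genes tested, 3.43% were called lower and 11.3% called higher. The median log2 fold change, taken throughout as libraries labelled Sox9 over control, was -1.75, a 3.38-fold lower level, while the median of all genes tested was -0.00. Within the range of average level that the mitotic genes covered, the median was -0.15 and 4.90% of 10512 genes were called lower. Genes with a log2 fold change below 0 numbered 56 of 58, against 50.2% of all genes tested. Every library labelled Sox9 lay below every control library in CPM for 53 of 58 genes, against 16.4% of all genes tested. The genes called lower fell between 1.37-fold (Bub3) and 7.64-fold (Plk1), 45 of them over 2-fold and 21 over 4-fold. Of the 100 tested genes with the lowest log2 fold change, 26 were mitotic genes of the list.

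The summed level of all 58 genes was 2222, 3869 and 2759 CPM in control replicates 1, 2 and 4. In the libraries labelled Sox9 it was 1076, 1138, 1035 and 1137 CPM in replicates 1 to 4. Thus the control libraries differed among themselves far more than the libraries labelled Sox9, and the groups did not overlap. Control replicate 2 was the highest control for 54 of the 58 genes, and control replicate 1 was the lowest for 51. The median coefficient of variation of a gene was 33.9% among the controls and 18.4% among the libraries labelled Sox9. Without control replicate 2, 40 genes were called lower and the median log2 fold change of all 58 was -1.46, and without control replicate 1 the values were 50 genes and -1.94. Without the shallowest library, Sox9 replicate 4, 43 genes were called lower and the median of all 58 was -1.59.

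**Figure D1:**
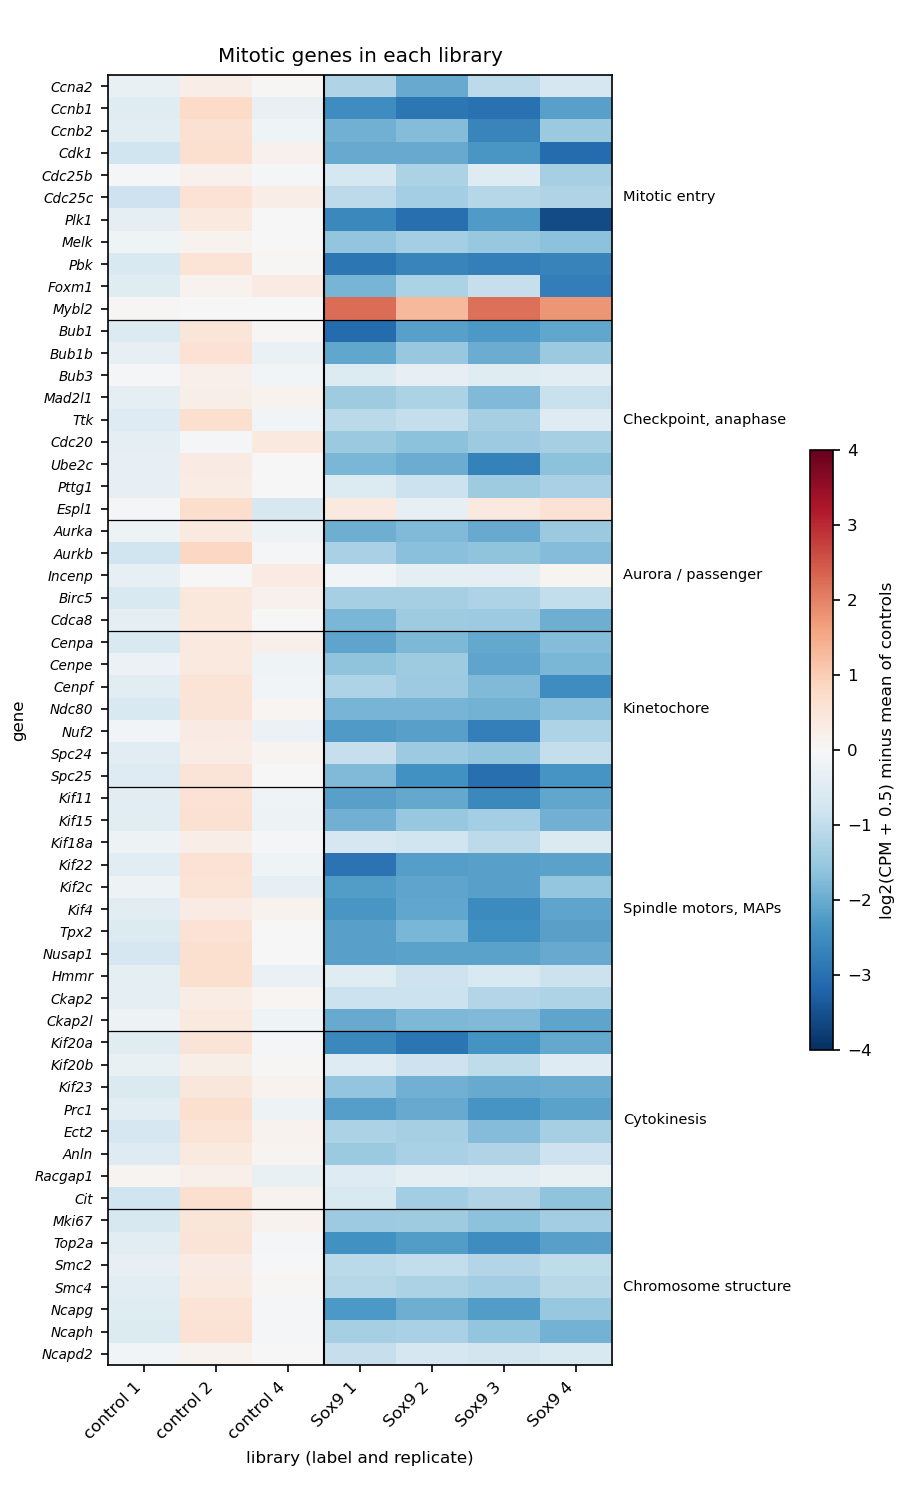
Level of each of the 58 mitotic genes in each of the 7 libraries, as log2(CPM + 0.5) minus the mean of the control libraries, ordered by role (blue, lower; red, higher). The columns of the 4 libraries labelled Sox9 are blue for nearly every gene, Mybl2 is the 1 gene called higher, and control replicate 2 is the highest control for 54 genes.

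Markers of some cell types moved with the groups, and their part in the lower mitotic mRNA levels was not tested. Of 9 radial glia markers, 5 were lower, with a summed level of 615 to 1164 CPM in the controls and 299 to 441 CPM in the libraries labelled Sox9. Among 8 markers of intermediate progenitors 3 were lower and 0 higher, and the sums overlapped, at 446 to 484 and 366 to 464 CPM. Their median log2 fold change was -0.43, and values ran from -2.25 to 1.15, with 6 of 8 below 0. At an unadjusted p under 0.05 in edgeR, 4 were lower and 1 higher. The lowest value was that of Eomes, which encodes the BP transcription factor Tbr2 (SE 0.23, edgeR adjusted p = 4.9e-05). The sums of the 10 newborn neuron markers overlapped, at 13963 to 17407 and 12843 to 14973 CPM, and 0 passed the test in edgeR (4 were lower at an unadjusted p under 0.05, and 1 by DESeq2). Tubb3, a neuronal tubulin, was at 6016 to 8027 CPM over all libraries, so neuronal mRNA was abundant in a sort labelled as neural progenitors. The 6 markers of oligodendrocyte precursors summed to 0.814 to 1.56 CPM in the controls and 9.73 to 27.7 CPM in the libraries labelled Sox9, with Olig2 at 0 counts in control replicates 1 and 4, and the 5 choroid plexus markers to 0.382 to 1.74 and 7.75 to 12.8 CPM. None of these markers had over 7 counts in a control library, so those that passed the filter on low counts did so through the libraries labelled Sox9, and calls among them are not given. Endothelial, mural and meningeal, microglial and erythroid markers were also low in the controls. Some of them may have passed the filter only through the libraries labelled Sox9, so calls among them are not given either. The endothelial markers summed to 3.15 to 11.1 CPM in the controls and 13.6 to 36.8 CPM in the libraries labelled Sox9. The sums of the mural and meningeal markers were 8.22 to 8.86 and 12.4 to 23.1 CPM, those of the microglial markers 9.65 to 33.6 and 12.4 to 58.6 CPM, and those of the erythroid markers 2.10 to 24.5 and 13.3 to 93.2 CPM. With cyclic loess normalisation and limma-trend, 3 radial glia markers were called lower. In sorted bulk cells, fewer dividing cells and less mitotic mRNA per dividing cell cannot be told apart.

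Genes of mitotic entry included the largest falls. Of the 11, 9 were lower, Ccna2 did not pass the test and Mybl2 was higher, with a median log2 fold change of -1.77. Their summed level was 264, 539 and 371 CPM in the controls and 90.2 to 104 CPM in the libraries labelled Sox9. In the sentences that follow, values run from replicate 1 to the last replicate of a group.

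Plk1 (chr7:122159439-122169873, + strand) encodes a kinase required at centrosomes, kinetochores and the midbody. Plk1 was at 20.9, 36.9 and 27.9 CPM in the control libraries and at 4.26, 3.02, 5.37 and 1.89 CPM in the libraries labelled Sox9. Even the highest library labelled Sox9 stood well below the lowest control, and the log2 fold change was -2.93 (SE 0.29, edgeR adjusted p = 4.0e-05), a 7.64-fold lower level. Pbk (chr14:65805837-65817822, + strand), a mitotic kinase, was at 62.9, 140.3 and 99.2 CPM in the control libraries and at 12.4, 14.9, 14.0 and 14.5 CPM in the libraries labelled Sox9. The 4 libraries labelled Sox9 lay close together and far below all controls, at a log2 fold change of -2.85 (SE 0.22, edgeR adjusted p = 7.6e-06). Ccnb1 (chr13:100778650-100786570, - strand) encodes cyclin B1, the activating partner of Cdk1. It was at 43.9, 105 and 50.1 CPM in the control libraries and at 10.6, 7.94, 7.38 and 13.2 CPM in the libraries labelled Sox9. Control replicate 2 was far above the other controls, all controls stood above every other library, and the log2 fold change was -2.80 (SE 0.29, edgeR adjusted p = 4.5e-05).

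Cdk1 itself fell by 2.44 on the log2 scale and Ccnb2, the second B-type cyclin, by 2.03. For the phosphatases that activate Cdk1 the log2 fold changes were nearer to 0, with Cdc25c at -1.35 and Cdc25b at -0.93, and both passed the test. In alternative fits Cdc25c was called lower in 5 of 15 and Cdc25b in 7 of 15. Melk, a kinase of dividing progenitors, fell by 1.57. Foxm1, which encodes a transcription factor that activates G2/M genes, fell by 1.77 with an SE of 0.44, the largest SE of the list. Its level was low, at 42, 73 and 73 counts in the controls and 9, 22, 25 and 2 counts in the libraries labelled Sox9, and it was called lower in 5 of the 14 alternative fits that tested it. Ccna2, encoding the S and G2 phase cyclin A2, was at 4.78, 7.30 and 6.31 CPM in the control libraries and at 2.33, 1.13, 2.68 and 3.57 CPM in the libraries labelled Sox9. The groups did not overlap, but the difference did not pass the test, at a log2 fold change of -1.38 (SE 0.38, edgeR adjusted p = 0.014), and it was called lower in 3 of 15 alternative fits.

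Mybl2 (chr2:163054687-163084688, + strand) encodes B-Myb, a transcription factor that joins the MuvB complex to activate G2/M genes. In raw counts, 19, 20 and 17 reads fell on it in the controls and 73, 54, 88 and 34 in the libraries labelled Sox9. Mybl2 was at 1.82, 1.74 and 1.73 CPM in the control libraries and at 10.03, 5.10, 9.84 and 7.13 CPM in the libraries labelled Sox9. Every library labelled Sox9 lay above every control, in which Mybl2 was nearly constant, and the log2 fold change was 2.18 (SE 0.35, edgeR adjusted p = 7.5e-04). It was the only gene of the list called higher, and it was the lowest of all 58 per exonic kilobase in the controls, at 0.380 ± 0.0103 CPM per kb (SD, n = 3), and at 1.73 ± 0.508 CPM per kb (SD, n = 4) in the libraries labelled Sox9. Low-level genes were often higher in the libraries labelled Sox9. Of the 1945 tested genes within 0.5 of the average log2 CPM of Mybl2, 20.4% were called higher and 1.34% lower, their median log2 fold change was 0.30, and 7.66% had a log2 fold change at least that of Mybl2. Around the level of Foxm1 the median of 2143 genes was 0.70, and 99.2% had a log2 fold change at least that of Foxm1.

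**Figure D2:**
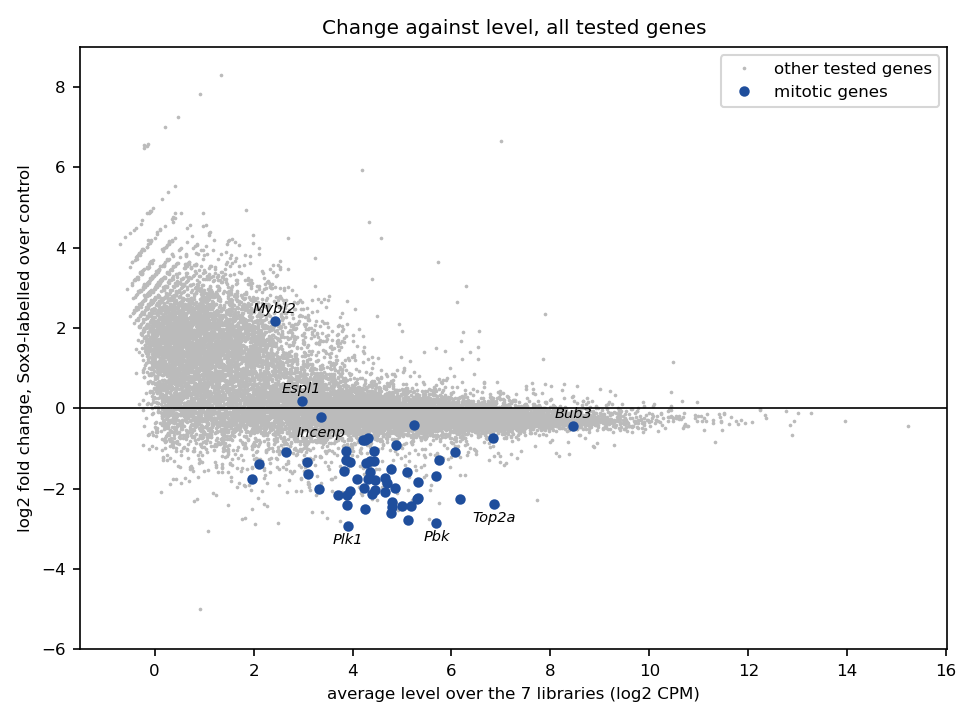
Log2 fold change (libraries labelled Sox9 over control) of all 16522 tested genes against their average level in log2 CPM, with the 58 mitotic genes as blue points. The mitotic genes lie below 0 apart from Espl1 and Mybl2, while other genes of low level spread towards positive values.

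Of the 9 genes of the spindle checkpoint and anaphase, 6 were lower and 3 did not pass the test, with a median log2 fold change of -1.37. Bub1, a checkpoint kinase of the kinetochore, was at 22.8, 47.4 and 34.8 CPM in the control libraries and at 3.57, 6.99, 6.48 and 7.55 CPM in the libraries labelled Sox9. All controls stood above the highest library labelled Sox9, at a log2 fold change of -2.51 (SE 0.28, edgeR adjusted p = 6.3e-05). Ube2c, the ubiquitin-conjugating enzyme of the APC/C, was at 33.9, 54.0 and 43.7 CPM in the control libraries and at 11.7, 10.5, 6.15 and 13.6 CPM in the libraries labelled Sox9. The groups were separate and the log2 fold change was -2.09 (SE 0.24, edgeR adjusted p = 9.0e-05). Bub1b, encoding the checkpoint protein BubR1, was at 51.1, 95.9 and 53.7 CPM in the control libraries and at 14.8, 22.1, 15.9 and 22.6 CPM in the libraries labelled Sox9. All controls again stood above the rest, at a log2 fold change of -1.83 (SE 0.23, edgeR adjusted p = 1.6e-04).

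Cdc20, the activator of the APC/C, fell by 1.63 and Mad2l1, which holds Cdc20 inactive, by 1.37 on the log2 scale. Bub3, the partner of both Bub kinases, changed least of all genes called lower, at 388, 473 and 386 CPM in the controls and 283, 332, 295 and 307 CPM in the libraries labelled Sox9. Bub3 also had the highest level of the list per exonic kilobase, 59.3 ± 7.13 CPM per kb in the controls and 43.5 ± 3.01 CPM per kb in the libraries labelled Sox9 (mean ± SD, n = 3 and 4). Its log2 fold change of -0.45 had an adjusted p under 0.01 in 3 of 15 alternative fits.

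The genes of this group that did not pass the test act at different steps, and in the 15 alternative fits Ttk was called lower in 5, Pttg1 in 2 and Espl1 in 0. Ttk, the Mps1 kinase that starts checkpoint signalling, was at 13.4, 30.1 and 17.7 CPM in the control libraries and at 8.93, 9.73, 7.38 and 13.4 CPM in the libraries labelled Sox9. The highest library labelled Sox9 (replicate 4) lay marginally above the lowest control (replicate 1), so the groups overlapped, and the log2 fold change was -1.07 (SE 0.28, edgeR adjusted p = 0.011). Pttg1, encoding securin, the inhibitor of separase, was at 6.59, 10.4 and 8.54 CPM in the control libraries and at 5.63, 4.44, 2.79 and 3.15 CPM in the libraries labelled Sox9. These groups did not overlap, at a log2 fold change of -1.08 (SE 0.31, edgeR adjusted p = 0.0177). Espl1, encoding separase, which cleaves cohesin at anaphase, was at 6.21, 11.0 and 3.97 CPM in the control libraries and at 8.79, 5.10, 8.72 and 10.1 CPM in the libraries labelled Sox9. The groups overlapped, control replicate 2 being the highest library of all, and the log2 fold change was 0.19 (SE 0.34, edgeR adjusted p = 0.71).

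Of the 5 genes of the Aurora kinases and the chromosomal passenger complex, 4 were lower and Incenp did not pass the test. Aurka, the kinase of the spindle poles, was at 37.0, 56.3 and 37.3 CPM in the control libraries and at 10.7, 12.2, 10.2 and 14.9 CPM in the libraries labelled Sox9. The controls stood far above the other libraries, at a log2 fold change of -1.87 (SE 0.20, edgeR adjusted p = 5.6e-05). Cdca8, encoding borealin, was at 61.4, 110.1 and 79.9 CPM in the control libraries and at 22.8, 30.0, 29.6 and 20.8 CPM in the libraries labelled Sox9. No library labelled Sox9 reached a control, and the log2 fold change was -1.69 (SE 0.20, edgeR adjusted p = 9.3e-05). Aurkb, the kinase of the complex, was at 16.5, 52.6 and 28.2 CPM in the control libraries and at 11.7, 8.69, 9.28 and 8.39 CPM in the libraries labelled Sox9. Control replicate 1 lay nearer to the libraries labelled Sox9 than to control replicate 2, without overlap, and the log2 fold change was -1.77 (SE 0.30, edgeR adjusted p = 0.00119). Birc5, encoding survivin, fell by 1.32. Incenp, the scaffold of the complex, was at 8.41, 10.7 and 13.7 CPM in the control libraries and at 9.89, 8.03, 8.27 and 11.7 CPM in the libraries labelled Sox9. These groups overlapped and the log2 fold change was -0.22 (SE 0.25, edgeR adjusted p = 0.53).

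All 7 genes of the centromere and kinetochore were lower, with a median log2 fold change of -2.02. Their summed level was 159, 291 and 207 CPM in the controls and 66.6, 59.3, 44.6 and 58.5 CPM in the libraries labelled Sox9. Spc25, a subunit of the Ndc80 complex that binds microtubules, was at 33.8, 70.8 and 48.9 CPM in the control libraries and at 14.0, 8.79, 5.59 and 9.23 CPM in the libraries labelled Sox9. Control and other libraries did not overlap, and the log2 fold change was -2.45 (SE 0.28, edgeR adjusted p = 9.0e-05). The other subunits of this complex fell as well, Nuf2 by 2.16, Ndc80 by 2.02 and Spc24 by 1.29 on the log2 scale. Cenpe, the kinesin of the outer kinetochore, was at 30.4, 47.1 and 31.6 CPM in the control libraries and at 11.3, 12.9, 7.94 and 9.65 CPM in the libraries labelled Sox9. Every control was higher, at a log2 fold change of -1.79 (SE 0.22, edgeR adjusted p = 1.4e-04). Cenpa, the histone H3 variant that marks centromeres, was at 16.6, 33.8 and 29.4 CPM in the control libraries and at 5.49, 6.99, 5.81 and 7.34 CPM in the libraries labelled Sox9. The lowest control stood well above the highest library labelled Sox9, at a log2 fold change of -2.06 (SE 0.25, edgeR adjusted p = 1.4e-04). Cenpf, a large protein of the outer kinetochore, fell by 1.75.

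Of the 11 spindle motors and microtubule-associated proteins, 10 were lower and Hmmr did not pass the test. The median log2 fold change was -2.13, the lowest of the 7 roles, a rank that was not tested. Ckap2l, a spindle protein of neural progenitors, was at 41.6, 63.3 and 43.2 CPM in the control libraries and at 11.5, 13.51, 13.9 and 10.9 CPM in the libraries labelled Sox9. The groups stayed apart and the log2 fold change was -1.98 (SE 0.19, edgeR adjusted p = 3.7e-05). Kif4, the chromokinesin of the chromosome arms, was at 18.8, 32.6 and 28.7 CPM in the control libraries and at 4.81, 5.76, 4.02 and 5.66 CPM in the libraries labelled Sox9. All libraries labelled Sox9 were below all controls, at a log2 fold change of -2.40 (SE 0.24, edgeR adjusted p = 4.0e-05). Kif22, another chromokinesin, was at 48.4, 95.6 and 57.6 CPM in the control libraries and at 7.83, 13.7, 13.9 and 14.1 CPM in the libraries labelled Sox9. Sox9 replicate 1 was the lowest by far, the groups did not overlap, and the log2 fold change was -2.44 (SE 0.24, edgeR adjusted p = 4.0e-05).

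Kif11, the motor that separates the spindle poles, fell by 2.32 on the log2 scale, and Tpx2, the activator of Aurora A on the spindle, by 2.24. Nusap1, which bundles microtubules, fell by 2.25, and Kif2c, a microtubule depolymerase at centromeres, by 2.13. Kif15, Ckap2 and Kif18a had log2 fold changes of -1.76, -1.07 and -0.80 and passed the test, Kif18a in only 4 of 15 alternative fits. Hmmr, a spindle pole protein, was at 17.1, 35.9 and 18.8 CPM in the control libraries and at 15.9, 12.6, 14.5 and 12.2 CPM in the libraries labelled Sox9. Control replicate 2 alone was much higher than the rest, the groups did not overlap by a narrow gap, and the log2 fold change was -0.79 (SE 0.25, edgeR adjusted p = 0.025), and it was called lower in 2 of 15 alternative fits.

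Of the 8 genes of the central spindle and cytokinesis, 6 were lower and 2 did not pass the test. Kif20a, a kinesin that brings Plk1 to the central spindle, was at 34.9, 70.1 and 47.8 CPM in the control libraries and at 7.83, 6.05, 8.83 and 11.5 CPM in the libraries labelled Sox9. The groups were far apart, at a log2 fold change of -2.60 (SE 0.25, edgeR adjusted p = 3.7e-05), and its exons overlap those of Cdc23, on the other strand, over 1271 bases. Prc1, which bundles antiparallel microtubules at the midzone, was at 91.4, 193 and 107 CPM in the control libraries and at 26.4, 30.0, 23.7 and 27.9 CPM in the libraries labelled Sox9. There was no overlap and the log2 fold change was -2.27 (SE 0.21, edgeR adjusted p = 3.7e-05). Kif23, a kinesin of the centralspindlin complex, was at 20.2, 42.4 and 33.7 CPM in the control libraries and at 10.03, 7.75, 7.15 and 7.34 CPM in the libraries labelled Sox9. The 4 values labelled Sox9 were below the lowest control, at a log2 fold change of -1.99 (SE 0.25, edgeR adjusted p = 1.6e-04).

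Racgap1, the partner of Kif23 in centralspindlin, was at 46.7, 49.96 and 35.6 CPM in the control libraries and at 30.6, 33.4, 32.3 and 35.2 CPM in the libraries labelled Sox9. The highest library labelled Sox9 lay just under the lowest control, and the log2 fold change was -0.43 (SE 0.15, edgeR adjusted p = 0.0467). Thus the subunits of 1 complex differed in size of change, although the difference between them was not tested. Kif20b, a kinesin of the midbody, was at 20.3, 29.5 and 26.0 CPM in the control libraries and at 17.2, 13.7, 12.1 and 17.4 CPM in the libraries labelled Sox9. Both groups were separate and the log2 fold change was -0.75 (SE 0.20, edgeR adjusted p = 0.0122), and it was called lower in 4 of 15 alternative fits. Cit, the citron kinase of the midbody, passed the test at a log2 fold change of -1.31 (SE 0.30, edgeR adjusted p = 0.00608), and was the 1 gene called lower whose groups overlapped, since Sox9 replicate 1 at 17.9 CPM was above control replicate 1 at 15.8 CPM. It was called lower in 5 of 15 alternative fits. Ect2, which activates RhoA for furrow ingression, fell by 1.51, and Anln, a scaffold of the contractile ring, by 1.33, though Anln was called lower in 7 of 15 alternative fits.

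All 7 genes of mitotic chromosome structure were lower, with a median log2 fold change of -1.58. Top2a, the topoisomerase that untangles sister chromatids, was at 154, 296 and 196 CPM in the control libraries and at 38.6, 43.5, 36.8 and 45.5 CPM in the libraries labelled Sox9. The libraries labelled Sox9 lay close together and far below every control, at a log2 fold change of -2.39 (SE 0.18, edgeR adjusted p = 7.6e-06). Ncapg, a subunit of condensin I, was at 15.2, 31.7 and 20.3 CPM in the control libraries and at 3.98, 5.10, 4.14 and 7.13 CPM in the libraries labelled Sox9. All controls were above all other libraries, and the log2 fold change was -2.17 (SE 0.28, edgeR adjusted p = 2.2e-04). Smc4, a core ATPase of both condensins, was at 57.1, 102 and 80.7 CPM in the control libraries and at 34.9, 32.0, 29.5 and 35.7 CPM in the libraries labelled Sox9. The ranges did not overlap, with a log2 fold change of -1.28 (SE 0.18, edgeR adjusted p = 2.9e-04). The further condensin subunits fell by different amounts, Ncaph by 1.58, Smc2 by 1.09 and Ncapd2 by 0.74 on the log2 scale, and Mki67, the proliferation marker Ki-67 that coats mitotic chromosomes, fell by 1.60.

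**Figure D3:**
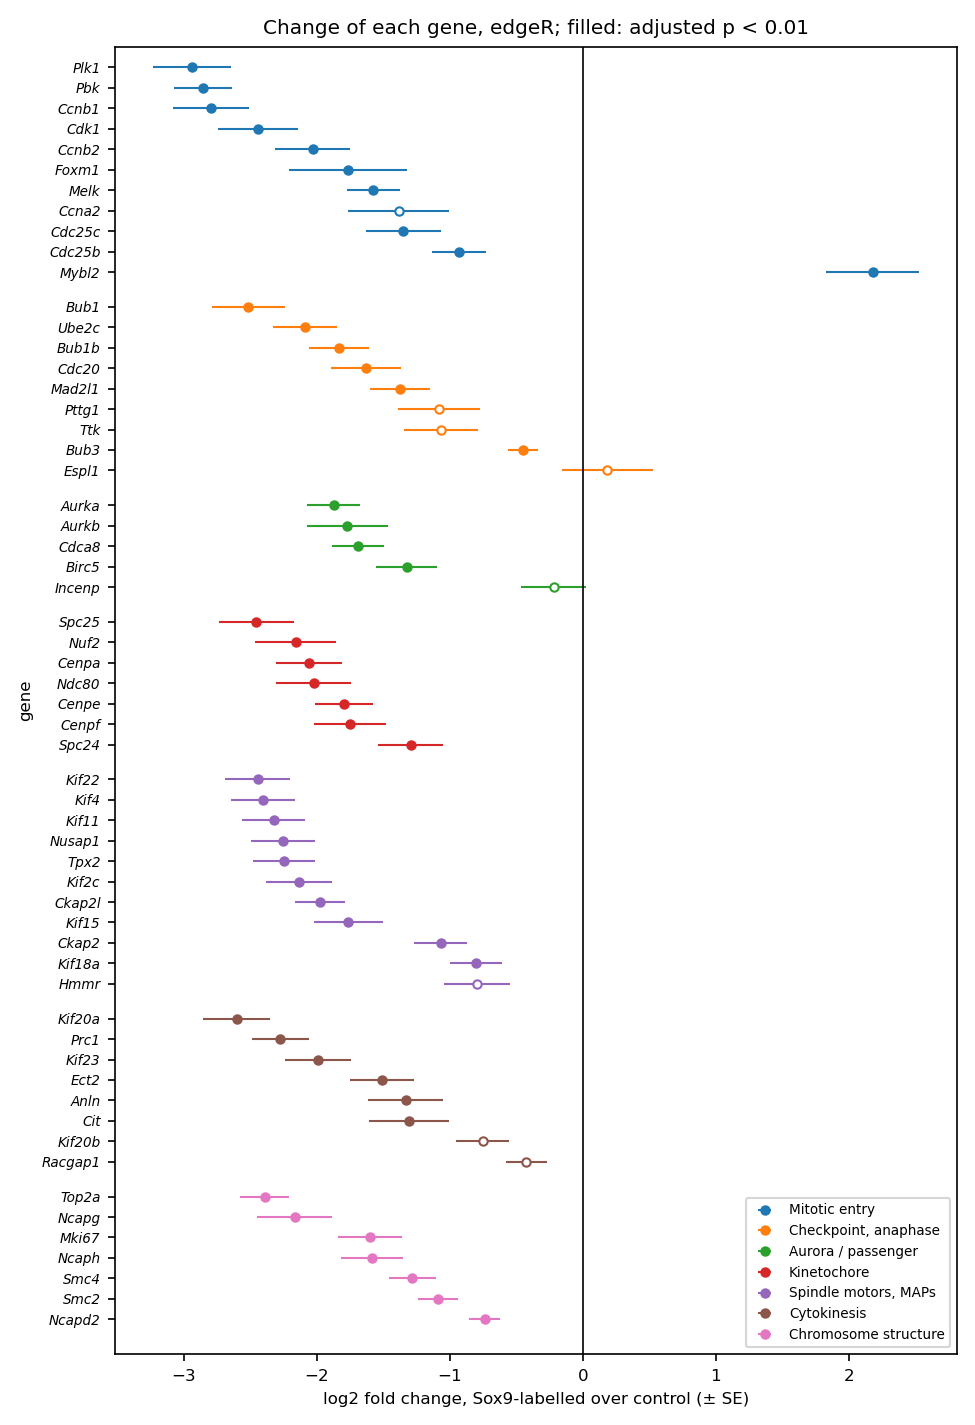
Log2 fold change (libraries labelled Sox9 over control) of the 58 mitotic genes by role, with bars for ± SE and filled points for an adjusted p under 0.01. Values run from -2.93 for Plk1 to 2.18 for Mybl2, and the 8 open points are the genes that did not pass the test.

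**Figure D4:**
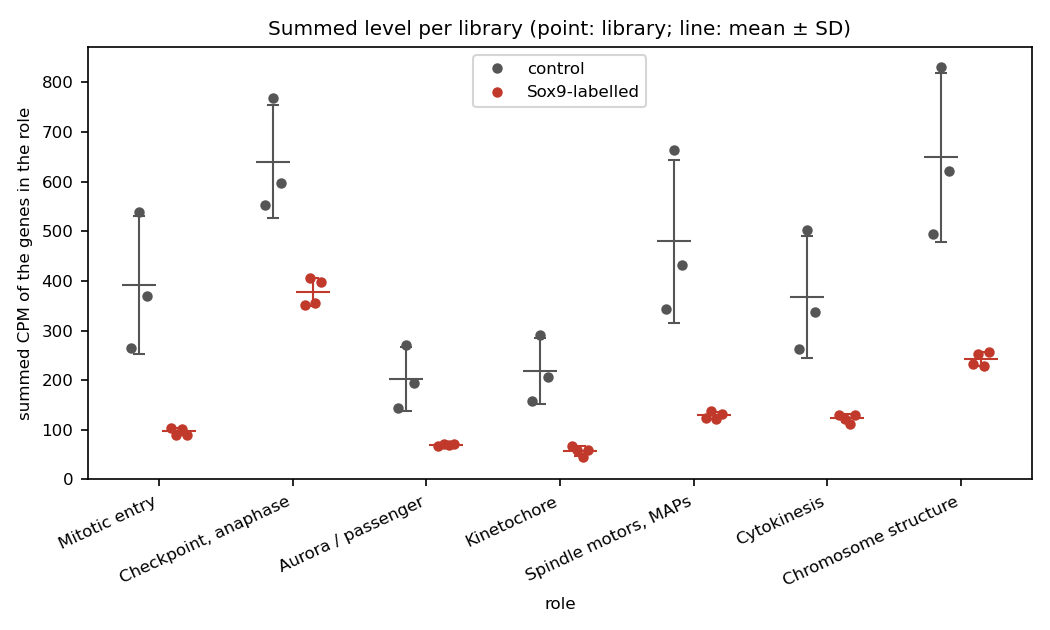
Summed CPM of the genes of each role in each library (points), with mean and SD as lines, for control (n = 3) and libraries labelled Sox9 (n = 4). In all 7 roles every library labelled Sox9 lies below every control, and control replicate 2 is the highest point.

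Per exonic kilobase, the most abundant mitotic mRNAs in the controls were Bub3, Pbk, Ccnb2, Top2a and Ncapd2, at means of 59.3, 56.3, 24.5, 23.9 and 23.7 CPM per kb. The last 3 of these did not differ beyond their spread. In the libraries labelled Sox9 the order was Bub3, Ncapd2, Smc2, Pbk and Smc4, at 43.5, 14.2, 8.28, 7.78 and 6.34 CPM per kb. Pbk and Top2a thus stood lower in this order and Ncapd2, Smc2 and Smc4 higher than in the controls, and these changes of rank were not tested. The lowest in the controls after Mybl2 were Espl1, Foxm1, Anln and Ccna2, at 0.808, 1.03, 1.37 and 1.501 CPM per kb.

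Other genes of the mitotic machinery were examined as a list of 99, of which 97 were tested. Among them 25 were lower and 0 higher at an adjusted p under 0.01 in edgeR, 90 had a log2 fold change below 0, and the median was -0.46. The share called lower over all genes tested was 3.43%. Without control replicate 2 the count fell to 9 lower, with at least 10 counts in every library it was 13, and with the replicate number of the titles as a block 10. DESeq2 called 37 lower and limma-trend 19, both 0 higher, against 1421 and 284 lower over all genes in those fits. At an unadjusted p under 0.05 in edgeR, 61 were lower and 0 higher. The share over all genes at this threshold was not determined. Of 30 further kinetochore genes 12 were lower (median log2 fold change -0.74). The counts were 4 of 14 for other checkpoint and mitotic kinases (-0.76), 3 of 12 for cohesin and its regulators (-0.44), 4 of 18 for other spindle genes (-0.41) and 1 of 5 for other cytokinesis genes (-0.33). Of 15 APC/C genes 1 was lower (6.67%, near the background), Anapc1 at a log2 fold change of -0.49, and 0 of the 3 condensin II subunits passed the test (medians -0.31 and -0.53). All 3 of the latter were lower at an unadjusted p under 0.05, and DESeq2 called 1 of them and limma-trend 0.

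The smallest p-values of this list belonged to 5 genes. Sgo1, encoding shugoshin, which protects centromeric cohesin, was at 15.4, 23.6 and 23.1 CPM in the control libraries and at 3.30, 2.46, 2.57 and 4.404 CPM in the libraries labelled Sox9. The groups were far apart, at a log2 fold change of -2.74 (SE 0.27, edgeR adjusted p = 3.9e-05). Tacc3, a spindle protein that binds Aurora A, was at 39.4, 78.5 and 55.9 CPM in the control libraries and at 16.8, 15.2, 19.9 and 18.7 CPM in the libraries labelled Sox9. The ranges were separate, with a log2 fold change of -1.72 (SE 0.21, edgeR adjusted p = 1.4e-04). Cdca5, encoding sororin, which stabilises cohesin, was at 10.5, 18.9 and 20.1 CPM in the control libraries and at 3.98, 2.83, 4.02 and 3.98 CPM in the libraries labelled Sox9. Again there was no overlap, and the log2 fold change was -2.16 (SE 0.28, edgeR adjusted p = 2.1e-04). Ska1, of the complex that keeps kinetochores on microtubules, was at 6.40, 8.25 and 10.1 CPM in the control libraries and at 1.37, 1.89, 0.783 and 2.10 CPM in the libraries labelled Sox9. All controls were higher, at a log2 fold change of -2.44 (SE 0.37, edgeR adjusted p = 5.3e-04). Cks1b, a small subunit of cyclin-dependent kinases, was at 56.2, 71.7 and 56.5 CPM in the control libraries and at 30.8, 30.2, 26.3 and 35.2 CPM in the libraries labelled Sox9. No overlap was seen and the log2 fold change was -1.01 (SE 0.15, edgeR adjusted p = 5.4e-04).

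Genes of DNA replication and S phase, the earlier part of the cell cycle, served for comparison. Of 40 tested, 22 (55%) were lower and 0 higher in edgeR at an adjusted p under 0.01, against 3.43% lower over all genes tested. The median log2 fold change was -0.93. DESeq2 called 25 lower and limma-trend 16, both 0 higher, against 1421 and 284 lower over all genes in those fits. At an unadjusted p under 0.05 in edgeR, 30 were lower and 0 higher, without a share over all genes for comparison. Their summed level was 2192, 3185 and 2616 CPM in the controls and 1264, 1315, 1201 and 1236 CPM in the libraries labelled Sox9, with control replicate 2 again the highest. The median of the mitotic genes was -1.75, and the difference between the lists was not tested.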

How the data were processed

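The authors sequenced poly(A) RNA of 3 control libraries and 4 libraries labelled Sox9. Per the paper's methods and the labels, cDNA was primed with poly-dT, amplified in 12 PCR cycles and made into libraries in 15 further cycles. Demultiplexing with bcl2fastq (2.17.1.14), adapter trimming with cutadapt and alignment to mm10 with STAR (2.5.2b) preceded counting on Ensembl release 70 genes. The authors deposited raw counts per gene, without normalization. The counting program and its strand setting are not given in the sources used here. A deposited FPKM table of the same reads was not used here. Reads carry no molecular identifiers, so counts are not independent molecules.

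Counts were tested with edgeR (4.0.16, R 4.3.3): TMM scaling, filterByExpr, a quasi-likelihood test between groups without covariates, and Benjamini-Hochberg adjustment over 16522 genes with a threshold of 0.01. The SE is the absolute log2 fold change over the square root of F. Total counts were 4429704 to 12907778 per library. A gene of low level, such as Foxm1 with 2 counts in 1 library, is therefore measured with little precision. Levels per kb used exonic lengths of GENCODE M21 (GRCm38). Promoters came from RefSeq (GRCm38.p6). Scripts were tested on simulated data.

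The members and lists were chosen with earlier results of these data known. Named with values in every library were the 3 smallest p-values of each role, every gene not called or called higher, and the 5 smallest p-values of the other mitotic genes. The library values of Bub3, Foxm1 and Cit and the choice of printed promoters were added after the values were seen. Alternatives were DESeq2 (1.42.0), its size factors in edgeR, library totals, cyclic loess with limma-trend (limma 3.58.1), testing without a filter, a minimum of 10 counts per library, a replicate block, a threshold of 0.05, and leaving out each library. Of the same-numbered pairs, replicates 2 deviated together weakly and the others did not, which cannot decide whether libraries were paired. The main test used no pairing. Groups follow the titles.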

Additional observations from a re-analysis of the deposited data

Results flagged for a closer look

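Among 66 sets of 4 libraries labelled Sox9 (the 58 genes and 8 summed levels), 3 held a library far from the others, by the gap of the extreme library to its neighbour as a share of the range (above Dixon's critical value for 4 values, which chance passes in about 1 of 20 sets). For Kif22 the ratio was 0.944, with replicate 1 at 7.83 CPM and the others at 13.7 to 14.1 CPM. For Kif2c it was 0.848, with replicate 4 at 11.7 CPM and the others at 7.14 to 7.84 CPM. For Ect2 it was 0.869, with replicate 3 at 11.8 CPM and the others at 15.9 to 16.5 CPM. All of these values lay below every control library of the same gene.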

How the results depend on the processing

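Of the 58 mitotic genes, 38 to 55 were called lower and 1 (Mybl2) higher under every alternative, and 36 were called lower in every one of the 15 fits that tested them. Leaving out 1 library gave 40 to 50 genes lower and medians from -1.94 to -1.46. The counts over all tested genes moved more. Called lower among them were 224 with library totals, 284 with cyclic loess and limma-trend, 1421 with DESeq2, 1452 without a filter, 204 with at least 10 counts in every library and 1787 at a threshold of 0.05. Called higher were 363 with cyclic loess, 638 with at least 10 counts and 3616 at 0.05. Leaving out 1 library gave 208 to 475 lower and 827 to 1590 higher, with fewer samples. Of the other mitotic genes, 14 were called lower with library totals, 38 without a filter, 13 with at least 10 counts and 43 at 0.05, and 9 to 25 when 1 library was left out, the 9 without control replicate 2. Otherwise the cause of these shifts was not tested. The median of all tested genes shifted to 0.23 with library totals, 0.54 with DESeq2 and 0.51 without a filter. Of the genes named by the rule and called, Aurkb was the 1 whose call was lost, under the replicate block by titles (log2 fold change -1.63, edgeR adjusted p = 0.0178). Among the 58 genes, calls of those beyond the rule were less stable for Bub3 (lower in 3 of 15 fits), Kif18a (4), Cdc25c and Cit (5 each), Foxm1 (5 of 14), and Cdc25b and Anln (7 each), while every other gene called lower was called lower in at least 12 fits.

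A shared origin of same-numbered libraries is not known, and correlations of deviations within groups of 3 and 4 libraries cannot decide it. By the titles, the deviations of same-numbered libraries from the group means had correlations of -0.036, 0.118 and -0.0048. The descriptions number 1 control differently, giving 0.017 for that pair. With the replicate block by titles 38 mitotic genes were lower, 218 of all tested genes lower and 400 higher, and 10 other mitotic genes lower. With the block by descriptions the values were 44, 353, 1034 and 15.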
